A study of Homo sapiens with 24 samples.

Results

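The genes of MHC class I antigen presentation were followed in RNA-seq libraries of T/C-28a2 cells, an immortalised human chondrocyte line. The set held 9 genes chosen by name: the heavy chain genes HLA-B, HLA-C and HLA-E, the light chain gene B2M, the transporter genes TAP1 and TAP2, the immunoproteasome subunit genes PSMB8 and PSMB9, and the transactivator gene NLRC5. Each symbol matched 1 Ensembl identifier among the 62703 in every library, and 7 of the 9 members were among the 16600 genes that passed the filter on low counts. There were 24 libraries, 4 in each of 6 groups. WT Ctr cells were unedited and untransfected in isotonic medium, and WT Sor cells were the same cells after 7 days in 100 mM sorbitol, which makes the medium hyperosmotic. WNK2 trans Ctr and WNK2 trans Sor cells were unedited cells labelled as transfected with a WNK2 plasmid for 48 hours, without and with the same sorbitol exposure. WNK2- Ctr and WNK2- Sor cells carried a CRISPR/Cas9 deletion of WNK2 exon 2, again without and with sorbitol. The methods describe WNK2- lines as grown from single sorted cells, and the sources used here do not give how many clones entered the libraries, so the deletion and the clone cannot be told apart. No group is labelled as transfected with an empty plasmid, so transfection and WNK2 cannot be told apart either. On GRCh38 (GENCODE 29 gene models), HLA-B, HLA-C, HLA-E, TAP1, TAP2, PSMB8 and PSMB9 lie in the MHC region of chromosome 6, B2M lies on chromosome 15 at 44711487 to 44718877 and NLRC5 on chromosome 16 at 56989485 to 57083531.

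Class I molecules show peptides from inside the cell to CD8 T cells. The proteasome cuts proteins into peptides, TAP1 and TAP2 carry the peptides into the endoplasmic reticulum, and there they are loaded onto a heavy chain paired with beta-2 microglobulin, the B2M product. Interferon raises most genes of the pathway, exchanges constitutive proteasome subunits for PSMB8 and PSMB9, and acts on the heavy chain and B2M promoters partly through NLRC5. Nearly all nucleated cells express class I molecules, chondrocytes included.

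Library totals ran from 14153002 to 25664619 counts. WNK2 itself went against the labels in isotonic medium: it had 1217 to 2568 counts in WT Ctr and 163 to 290 in WNK2 trans Ctr, against 266 to 314 in WT Sor and 2237 to 3739 in WNK2 trans Sor. WNK2- libraries had 440 to 501 counts without sorbitol and 322 to 503 with it, and a count over the whole gene does not test the loss of exon 2. Groups are therefore named below as labelled, and the counts of members, neighbours and list genes in WNK2- Ctr or WT Sor against WT Ctr are also given against WNK2 trans Ctr. The interaction terms were fitted with the groups as labelled. Of the chondrocyte markers, SOX9 was listed at 0 in all 24 libraries, which is not read as absent expression for the reason given with TAP1 and TAP2. The summed level of the 12 markers was 64 to 157 CPM (counts scaled to a common library size) in the unedited groups and 19.6 to 25.3 CPM in the WNK2- groups. HAPLN1 carried most of this sum, with a mean of 81 CPM in WT Ctr, 46.37 CPM in WNK2 trans Ctr and 117.5 CPM in WNK2 trans Sor. In WNK2 trans Sor against WNK2 trans Ctr, HAPLN1, MATN1 and SOX5 were called higher, and COL2A1, ACAN, COMP, MATN3 and PRG4 lower. Of the leukocyte markers, CD68 was at 0 and PTPRC and CD3E were near 0. The summed level of the 8 markers was 5.25 to 23.4 CPM in the unedited groups, mostly CD14, and 4.27 to 6.05 CPM in the WNK2- groups. In WNK2- Sor the mean was 2.53 CPM for ITGAX and 1.86 CPM for CD14. The 5 endothelial markers, mostly PECAM1, had a summed level that went from 26.5-36.1 CPM without sorbitol to 55-63.4 with it in WT libraries, from 26.3-41.4 to 65.7-78.5 in those labelled as transfected and from 16.5-19.9 to 38.7-45.6 in WNK2- libraries, without overlap within any of these pairs. Single markers did not all follow the sums. In WNK2- Ctr against WT Ctr, KDR, VWF and TIE1 were called higher, and PECAM1 and CLDN5 lower. CD53 was called higher in WNK2- Sor than in WT Sor, at means of 0.71 and 0.14 CPM, and CD14 lower. The 5 epithelial markers, mostly KRT8, summed to 383-627 CPM in WT Ctr and 642-814 in WNK2- Ctr. With sorbitol they summed to 536-595 in WT and 528-663 in WNK2- libraries. The part of these marker differences in the results below was not tested. In bulk RNA, fewer cells of a type and less RNA per cell cannot be told apart.

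The promoters shown are those of HLA-B, HLA-C and B2M, on chromosomes 6 and 15. These genes were lower in WNK2- than in WT cells in both media, as given below. PSMB9 was lower in both media as well, and its window is described but not printed. The sequences are from RefSeq on GRCh38.p14, which had promoter windows for 7 of the 9 members (not HLA-E or NLRC5), and each line runs 5′ to 3′ on the gene's strand from 250 to 41 bases before the start. HLA-B lies at chr6:31357220-31357429 (minus strand), HLA-C at chr6:31272133-31272342 (minus strand) and B2M at chr15:44711267-44711476 (plus strand). Capitals mark matches, on either strand, to GAAGTGAAA, GAAANNGAA (2 spellings related to the interferon response element), GGGGATTCC (a kappa B site), TGACGC (part of the X2 box) and ATTGG (an inverted CCAAT box).
HLA-B: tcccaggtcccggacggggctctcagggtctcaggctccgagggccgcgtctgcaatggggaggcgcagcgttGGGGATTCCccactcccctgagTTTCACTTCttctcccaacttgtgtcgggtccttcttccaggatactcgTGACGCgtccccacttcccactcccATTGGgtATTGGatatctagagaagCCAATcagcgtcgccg
HLA-C: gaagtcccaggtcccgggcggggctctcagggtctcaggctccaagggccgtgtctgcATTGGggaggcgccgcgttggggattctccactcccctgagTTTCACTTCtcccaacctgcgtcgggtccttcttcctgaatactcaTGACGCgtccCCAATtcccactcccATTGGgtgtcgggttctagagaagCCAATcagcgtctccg
B2M: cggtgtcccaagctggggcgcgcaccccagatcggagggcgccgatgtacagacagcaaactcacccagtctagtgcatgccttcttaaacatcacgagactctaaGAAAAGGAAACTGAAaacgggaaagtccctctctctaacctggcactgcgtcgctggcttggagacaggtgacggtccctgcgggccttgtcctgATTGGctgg
The HLA-B and HLA-C windows were 88.5% identical over 304 aligned columns. Both held GAAGTGAAA, found in 0.51% of the 35116 RefSeq windows of the same length, and TGACGC, found in 9.14%. GGGGATTCC, found in 0.285% of windows, matched HLA-B and no other member. B2M held GAAANNGAA at 2 overlapping positions, and this motif, found in 8.11% of windows, also matched windows of TAP1, TAP2 and PSMB8, where it overlapped a GAAGTGAAA match. ATTGG, found in 34.6% of windows, matched HLA-B, HLA-C, B2M, TAP1 and PSMB9. The PSMB9 window matched none of the other spellings. A match describes the letters and does not show that a factor binds there.

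HLA-B, HLA-C, HLA-E, B2M and PSMB9 were highest in the 2 isotonic unedited groups and lowest in the WNK2- groups, whereas NLRC5 stayed within a narrow range. Per kilobase of exon, B2M was the most abundant member, with 229 CPM per kb in WT Ctr, followed by HLA-C (162), HLA-B (65.4), HLA-E (47.1), PSMB8 (19.6), PSMB9 (7.49) and NLRC5 (2.5). TAP1 and TAP2 were listed at 0 in all 24 libraries.

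**Figure D1:**
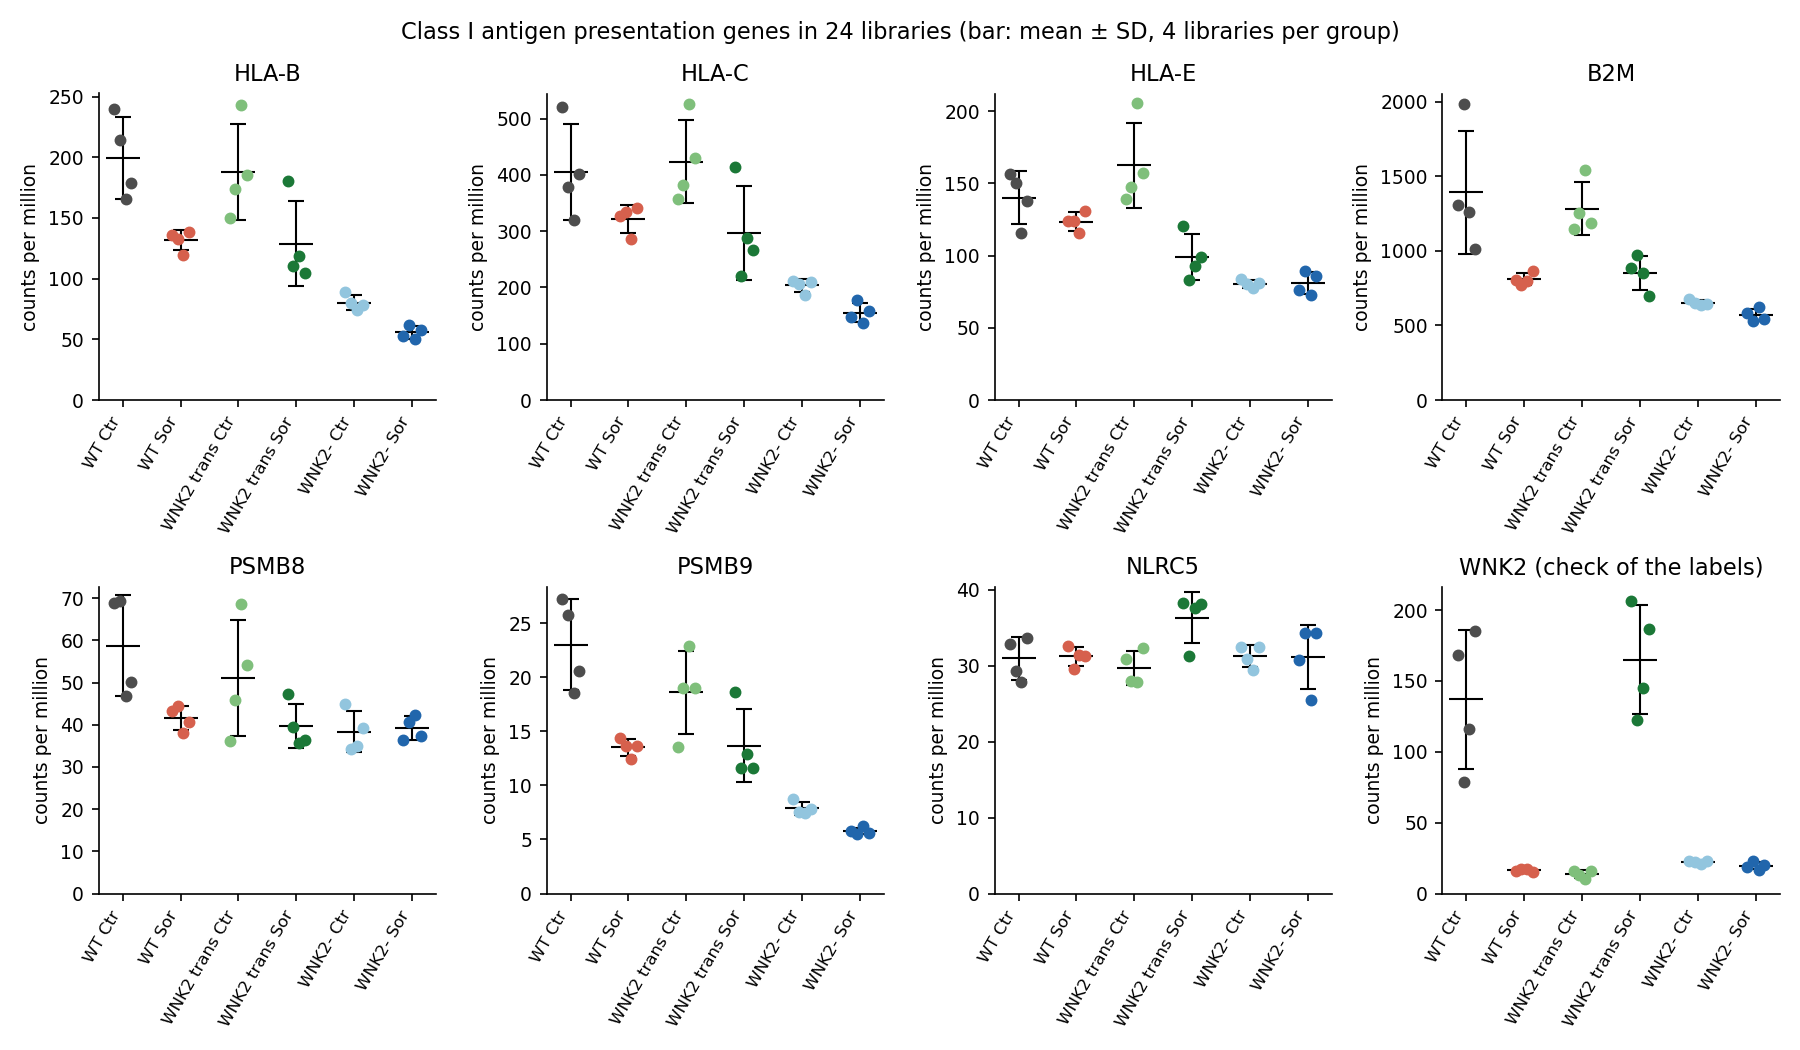
CPM (vertical axis, from 0) of the 7 tested members and of WNK2 in each of the 24 libraries, by group. Points are libraries and bars are the mean ± SD of 4. The WNK2- libraries of HLA-B, HLA-C, HLA-E, B2M and PSMB9 lie below the WT libraries of the same medium, and NLRC5 overlaps between all groups.

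HLA-B encodes a classical heavy chain that presents peptides. Its level in the 4 WT Ctr libraries was 239.7, 214, 165 and 179 CPM, and in WNK2- Ctr it was 88.8, 79.8, 73.7 and 78.5 CPM. The groups did not overlap, and HLA-B was lower in WNK2- Ctr by a log2 fold change of -1.31 ± 0.15 (SE, edgeR adjusted p = 1.75e-07). With sorbitol it was 136, 133, 119.6 and 139 CPM in WT and 52.9, 62.1, 50.3 and 57.9 CPM in WNK2- cells, again without overlap (-1.24 ± 0.15, edgeR adjusted p = 2.98e-07). HLA-B also fell with sorbitol within each genotype, by 0.60 ± 0.15 log2 in WT (edgeR adjusted p = 0.00515) and by 0.52 ± 0.15 log2 in WNK2- cells (edgeR adjusted p = 0.0191). In the order of the 6 groups, WT Ctr and WNK2 trans Ctr did not differ beyond their spread, nor did WT Sor and WNK2 trans Sor, and every other neighbouring pair did.

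HLA-C encodes a heavy chain that also engages receptors of natural killer cells. It was at 521, 379, 319 and 401 CPM in WT Ctr and 212, 207, 187 and 209 CPM in WNK2- Ctr, and at 327, 334, 285 and 341 CPM in WT Sor and 148, 178, 137 and 159 CPM in WNK2- Sor. Every WNK2- library lay below every WT library in the same medium. The log2 fold changes were -0.99 ± 0.16 without sorbitol (edgeR adjusted p = 1.49e-05) and -1.05 ± 0.16 with it (edgeR adjusted p = 4.99e-06). The sorbitol difference of HLA-C did not pass the test in WT (-0.33 ± 0.15, edgeR adjusted p = 0.122) or in WNK2- cells (-0.39 ± 0.16, edgeR adjusted p = 0.0961). It passed in both when libraries were corrected for GC content and exon length, with log2 fold changes of -0.52 in WT and -0.29 in WNK2- cells. HLA-C is the member richest in G and C, with 62.7% GC over its exons against a median of 48.5% over the tested genes.

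HLA-E encodes a non-classical heavy chain that presents leader peptides of other heavy chains to natural killer cells. It was at 157, 151, 116 and 138 CPM in WT Ctr and 83.5, 80.1, 77.3 and 81.3 CPM in WNK2- Ctr, a difference of -0.80 ± 0.12 log2 (edgeR adjusted p = 7.00e-06). With sorbitol it was at 124, 124, 116 and 131 CPM in WT and 76.5, 89.1, 72.5 and 85.8 CPM in WNK2- cells (-0.61 ± 0.12, edgeR adjusted p = 1.50e-04). Neither pair of groups overlapped. Within a genotype its sorbitol difference was -0.18 ± 0.12 log2 in WT (95% interval -0.43 to 0.06, edgeR adjusted p = 0.281) and 0.01 ± 0.12 in WNK2- cells (95% interval -0.24 to 0.25, edgeR adjusted p = 0.978), and neither passed the test.

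B2M encodes the light chain that all class I heavy chains need to reach the cell surface. It was at 1309.6, 1981, 1257 and 1015 CPM in WT Ctr, 804, 773, 799 and 865 in WT Sor, 678, 648, 639 and 642 in WNK2- Ctr and 580.2, 533, 624 and 543 in WNK2- Sor. These 4 groups did not overlap in that order, although WT Ctr was spread widely, with 1 library at 1981 CPM. B2M was lower in WNK2- Ctr than in WT Ctr by 1.09 ± 0.14 log2 (edgeR adjusted p = 6.61e-07) and lower in WNK2- Sor than in WT Sor by 0.51 ± 0.14 log2 (edgeR adjusted p = 0.0037). It fell with sorbitol by 0.78 ± 0.14 log2 in WT (edgeR adjusted p = 2.18e-04), while in WNK2- cells the difference was -0.19 ± 0.14 (edgeR adjusted p = 0.399). The difference between these 2 sorbitol effects was 0.59 ± 0.19 log2, with a 95% interval of 0.19 to 0.99 and an edgeR adjusted p of 0.0599, so it did not pass the test. DESeq2 gave it an adjusted p of 0.0316.

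The immunoproteasome subunits PSMB8 and PSMB9 replace PSMB5 and PSMB6 in the catalytic core. PSMB9 was at 27.2, 25.8, 18.5 and 20.5 CPM in WT Ctr, 14.3, 13.7, 12.4 and 13.7 in WT Sor, 8.72, 7.5, 7.46 and 7.8 in WNK2- Ctr and 5.8, 5.49, 6.21 and 5.6 in WNK2- Sor. The 4 groups did not overlap, and PSMB9 had the largest difference of the members between WNK2- Ctr and WT Ctr, -1.55 ± 0.16 log2 (edgeR adjusted p = 2.39e-08). With sorbitol the difference between genotypes was -1.23 ± 0.16 (edgeR adjusted p = 8.71e-07). PSMB9 fell with sorbitol in WT by 0.77 ± 0.16 log2 (edgeR adjusted p = 8.80e-04), and in WNK2- cells the difference of -0.45 ± 0.16 did not pass (edgeR adjusted p = 0.0698).

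PSMB8 was at 68.8, 69.4, 46.8 and 50 CPM in WT Ctr, 43.3, 44.4, 38.1 and 40.8 in WT Sor, 44.8, 34.3, 35 and 39.2 in WNK2- Ctr and 36.3, 40.6, 42.3 and 37.3 in WNK2- Sor. WT Ctr lay above the other 3, which overlapped with each other. PSMB8 was lower in WNK2- Ctr than in WT Ctr by 0.62 ± 0.15 log2 (edgeR adjusted p = 0.00219) and fell with sorbitol in WT by 0.50 ± 0.15 (edgeR adjusted p = 0.0203). This sorbitol call was lost without WT Ctr replicate 1 or 2 or without WT Sor replicate 3 or 4. With sorbitol the genotypes differed by -0.09 ± 0.15 log2 (95% interval -0.41 to 0.23, edgeR adjusted p = 0.662). Within a library, the ratio of PSMB8 to PSMB5 counts averaged 0.29 ± 0.0147 (SD, n = 4) in WT Ctr and 0.156 ± 0.0141 in WNK2- Ctr, and with sorbitol 0.263 ± 0.0124 in WT and 0.164 ± 0.00808 in WNK2- cells. For PSMB9 to PSMB6 the isotonic averages were 0.141 ± 0.0235 in WT and 0.0728 ± 0.00249 in WNK2- cells, and those with sorbitol were 0.137 ± 0.00978 and 0.0579 ± 0.00314. Both ratios were lower in every WNK2- library than in every WT library, and they are given as descriptions. With sorbitol, PSMB5 itself was called higher in WNK2- cells, with means of 158.3 CPM in WT and 238 CPM in WNK2- cells. The lower ratio of PSMB8 to PSMB5 there is therefore not read as lower PSMB8.

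NLRC5 encodes a cofactor that acts on class I promoters. It was at 32.9, 29.3, 27.9 and 33.7 CPM in WT Ctr, 32.4, 30.8, 29.4 and 32.4 in WNK2- Ctr, 32.6, 29.6, 31.3 and 31.3 in WT Sor and 30.7, 34.3, 25.4 and 34.3 in WNK2- Sor. The 4 groups overlapped, and the genotypes differed by 0.02 ± 0.10 log2 without sorbitol (95% interval -0.19 to 0.22, edgeR adjusted p = 0.918) and by -0.0018 with it (95% interval -0.21 to 0.20, edgeR adjusted p = 0.991). With the correction for GC content and exon length, NLRC5 was lower in WNK2- Ctr than in WT Ctr by 0.197 log2 (edgeR adjusted p = 0.0455) and lower in WT Sor than in WT Ctr by 0.268 (edgeR adjusted p = 0.0132). Its direction in these comparisons therefore depended on the processing. Over the 24 libraries, log2 CPM of HLA-B correlated with that of NLRC5 at r = 0.0116, with HLA-C at 0.982 and with PSMB9 at 0.985. After group means were removed, the correlation of HLA-B with HLA-C was 0.91, and that of HLA-C with B2M was 0.0619. These correlations describe libraries that share groups.

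TAP1 and TAP2 gave no values to compare, since both were listed at 0 in every library while TAPBP, which holds the TAP complex to class I molecules, had 1728 to 3105 counts. In GENCODE 29, TAP1 shares 9.49% of its exon bases with PSMB8-AS1 and TAP2 shares 32.3% with AL669918.1. Of 19856 protein-coding genes, 3132 were listed at 0 in all libraries, among them genes most cells use, such as WTAP, PSMA2 and PSMA3. Of those at 0, 44.2% shared over 5% of their exon bases with another gene, against 24.2% of coding genes with a mean of at least 100 counts. The zeros are therefore not read as absent expression. HLA-B shares 18.9% of its exon bases and PSMB8 20.6% with overlapping genes, HLA-C among those of HLA-B and PSMB9 among those of PSMB8. HLA-B and HLA-C are similar in sequence, and the strand setting of the counting was not given in the sources used here, so reads could be split or lost between these genes.

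In isotonic medium, WNK2- cells had less mRNA of 6 of the 7 tested members than WT cells. HLA-B, HLA-C, HLA-E, B2M, PSMB8 and PSMB9 were lower, with log2 fold changes from -1.55 to -0.62, and NLRC5 did not pass the test. All 6 were without overlap between the groups, as were 17.7% of all tested genes in the lower direction, and the median over the 7 was -0.99 against 0.00 over all tested genes. Of all 16600 genes tested, 42.1% were called in this comparison and 21.5% were called lower. Against WNK2 trans Ctr, WNK2- Ctr was again lower for these 6 members, where 47.7% of all genes were called and 23.7% were called lower. The log2 fold changes were -1.23 ± 0.15 for HLA-B, -1.06 ± 0.16 for HLA-C, -1.01 ± 0.12 for HLA-E, -0.98 ± 0.14 for B2M, -1.24 ± 0.16 for PSMB9 and -0.42 ± 0.15 for PSMB8. That of PSMB8 (edgeR adjusted p = 0.0277) was lost in a fit of these 2 groups alone, without WNK2 trans Ctr replicate 3 or 4 and without WNK2- Ctr replicate 2 or 3. The comparisons share the WNK2- Ctr libraries.

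**Figure D2:**
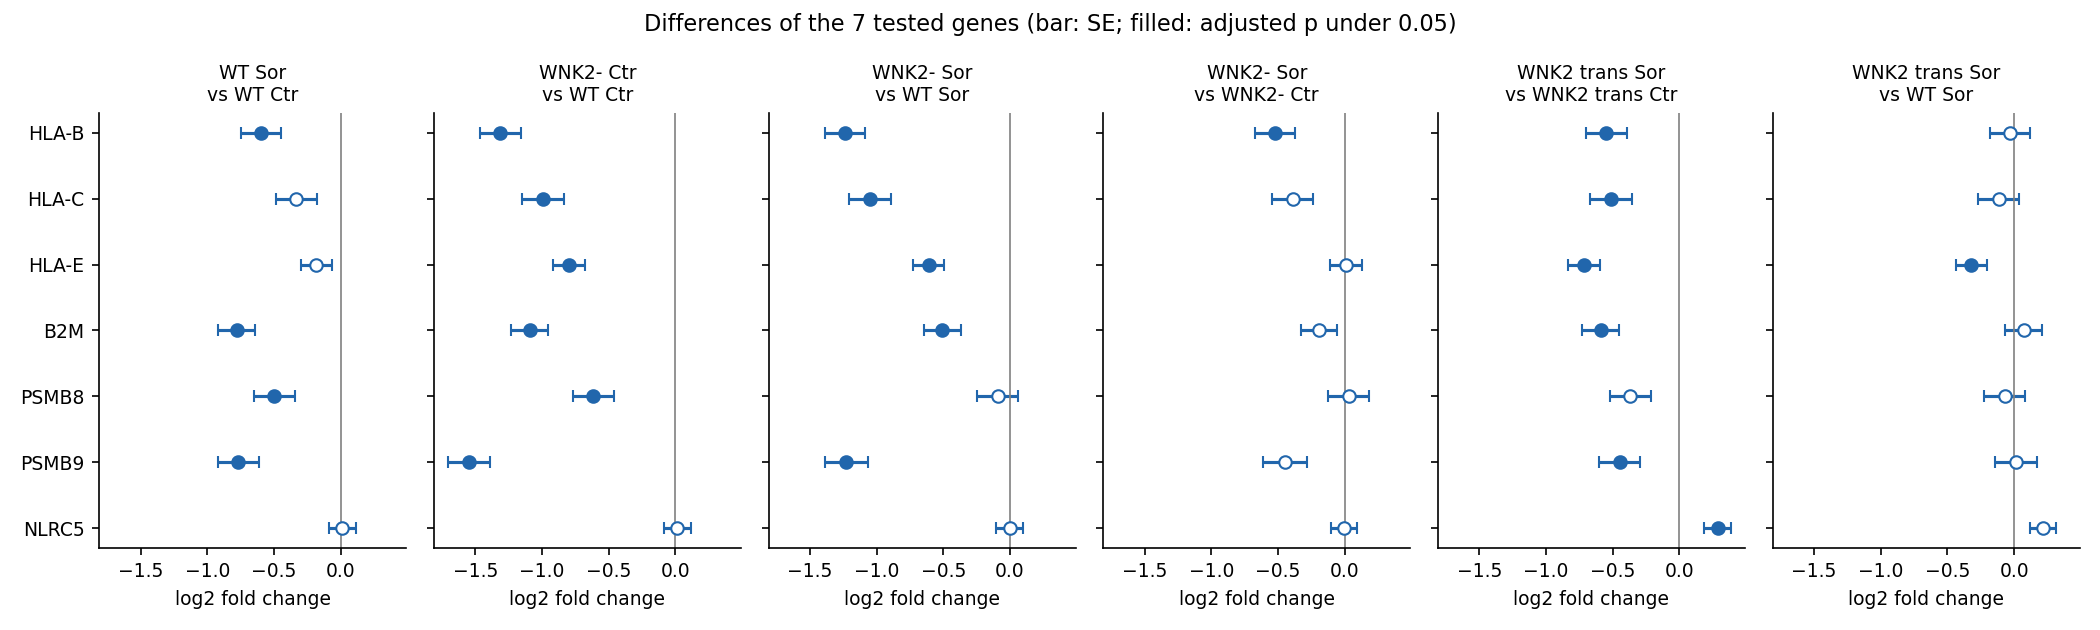
Log2 fold change (horizontal axis) ± SE of the 7 tested members in 6 comparisons from the edgeR fit of all 24 libraries. Filled points passed an adjusted p under 0.05, which 6 members did in WNK2- Ctr against WT Ctr and 5 did in WNK2- Sor against WT Sor.

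In sorbitol, 5 of the 7 members were lower in WNK2- than in WT cells: HLA-B, HLA-C, HLA-E, B2M and PSMB9. Their log2 fold changes ran from -1.24 to -0.51, none overlapped between the groups, where 26.2% of all tested genes were lower without overlap, and the median over the 7 was -0.61. Over all genes, 46.3% were called and 22.7% were called lower. The same 5 were called in a fit without WT Ctr and WNK2 trans Ctr, the groups whose WNK2 counts went against their labels.

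Sorbitol lowered 4 of the 7 members in WT cells, namely HLA-B, B2M, PSMB8 and PSMB9, by 0.50 to 0.78 on the log2 scale. Over all genes 24.1% were called and 12.7% were called lower. Against WNK2 trans Ctr, WT Sor was lower for HLA-B (-0.51 ± 0.15, edgeR adjusted p = 0.0211), HLA-E (-0.39 ± 0.12, 0.0242), B2M (-0.66 ± 0.14, 0.00143) and PSMB9 (-0.46 ± 0.16, 0.0467), with 15.1% of genes called and 6.31% called lower. Here only B2M kept its call without WT Sor replicate 3 or without WNK2 trans Ctr replicate 3, and 2 members, B2M and HLA-B, did without WT Sor replicate 1 or 2. The PSMB9 call was lost in 22 of 34 alternatives. In WNK2- cells 1 of the 7 members, HLA-B, was called lower with sorbitol, which is near the share of all genes called, 14.9%. No HLA-B call remained there without WNK2- Ctr replicate 1 or without WNK2- Sor replicate 1 or 3. The fit without WT Ctr and WNK2 trans Ctr called 3 members lower in WNK2- Sor, adding HLA-C and PSMB9, as did the fit without WNK2 trans Sor replicate 1, and leaving out WNK2 trans Ctr replicate 1 added PSMB9. The genotype by sorbitol term, which tests whether the sorbitol effect differed between genotypes, called 0 members in edgeR, and 2 members, B2M and PSMB8, had an unadjusted p under 0.05. It called 1 member without WT Ctr replicate 4 or without WNK2 trans Ctr replicate 3, and 1 by DESeq2. Over all genes 8.65% were called.

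The groups labelled as transfected were set against the untransfected ones in each medium. WNK2 trans Ctr differed from WT Ctr in 0 of 7 members by edgeR, with 0 at an unadjusted p under 0.05 and 0 by DESeq2, where 12.5% of all genes were called. WNK2 trans Sor differed from WT Sor in HLA-E alone, where 31.7% of genes were called. HLA-E was at 121, 83.5, 92.8 and 99.2 CPM in WNK2 trans Sor, which overlapped the WT Sor libraries given above. The difference was -0.32 ± 0.12 log2 (edgeR adjusted p = 0.0419), and it no longer passed under 10 of 35 alternatives, among them the fits without WT Sor replicate 1, 2 or 4 and without WNK2 trans Sor replicate 2, 3 or 4. With the correction for GC content and exon length, HLA-B and HLA-C were higher in WNK2 trans Sor than in WT Sor, by 0.27 and 0.37 log2, against -0.03 ± 0.15 and -0.12 ± 0.15 without it. NLRC5 was also higher there with the correction, by 0.47 log2 (edgeR adjusted p = 3.92e-05), against 0.22 ± 0.10 without it.

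Between the 2 groups labelled as transfected, sorbitol went with lower HLA-B, HLA-C, HLA-E, B2M and PSMB9 and higher NLRC5. Over all genes 48% were called and 23.7% were called lower. HLA-E was at 139, 148, 206 and 158 CPM in WNK2 trans Ctr, above all 4 libraries of WNK2 trans Sor, a difference of -0.71 ± 0.12 log2 (edgeR adjusted p = 2.46e-05). B2M was at 1148, 1252, 1540.3 and 1186 CPM without sorbitol and 887, 968, 854 and 696 with it, also without overlap (-0.59 ± 0.14, edgeR adjusted p = 0.00104). The other 3 overlapped between the groups, HLA-B at -0.55 ± 0.15, HLA-C at -0.51 ± 0.16 and PSMB9 at -0.45 ± 0.16 log2 (edgeR adjusted p = 0.00433, 0.00847 and 0.0201). HLA-C came to 0.02 log2 with the correction for GC content and exon length, and HLA-C and PSMB9 lost their calls without WNK2 trans Ctr replicate 3. NLRC5 was at 30.9, 27.9, 27.8 and 32.3 CPM in WNK2 trans Ctr and 38.3, 31.3, 37.5 and 38 in WNK2 trans Sor. It was higher by 0.29 ± 0.10 log2 (edgeR adjusted p = 0.0206), and the groups overlapped in 1 library with sorbitol. The NLRC5 call was lost without WNK2 trans Ctr replicate 2 or 3 or WNK2 trans Sor replicate 1, 3 or 4, and that of PSMB9 also without WNK2 trans Sor replicate 2 or 4. Without WNK2 trans Ctr replicate 3, the test called 3 members in place of 6. The transfection by sorbitol term, which tests whether the sorbitol effect differed between the labelled transfected and untransfected cells, called 1 member, HLA-E (-0.53 ± 0.17 log2, edgeR adjusted p = 0.0154), where 35.5% of all genes were called. This term uses both isotonic groups whose WNK2 counts went against their labels.

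The members on chromosome 6 lie in the MHC region, and their neighbours were looked at in the same fit. The 102 tested genes within GRCh38 positions 29555629 to 33804011 had a median log2 fold change of -0.32 between WNK2- Ctr and WT Ctr, with 35 called lower and 6 higher, against 21.5% called lower over all genes. The median was again -0.32 between WNK2- Sor and WT Sor, with 36 lower and 8 higher. It was 0.01 between WT Sor and WT Ctr, with 11 lower and 8 higher, and -0.39 between WNK2 trans Sor and WNK2 trans Ctr, with 42 lower and 10 higher. With WNK2 trans Ctr as the isotonic group, the median was -0.34 in WNK2- Ctr, with 42 lower and 9 higher, and -0.06 in WT Sor, with 8 lower and 4 higher. HLA-B and PSMB9 lay below the lower quartile of these neighbours, -0.57, in WNK2- Ctr against WT Ctr, and so did HLA-C, HLA-E and PSMB8. B2M, on chromosome 15, had 37 tested neighbours with a median of -0.03 in the same comparison, with 11 called lower and 6 higher. NLRC5, on chromosome 16, had 48 with a median of -0.10, with 14 called lower and 7 higher.

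**Figure D3:**
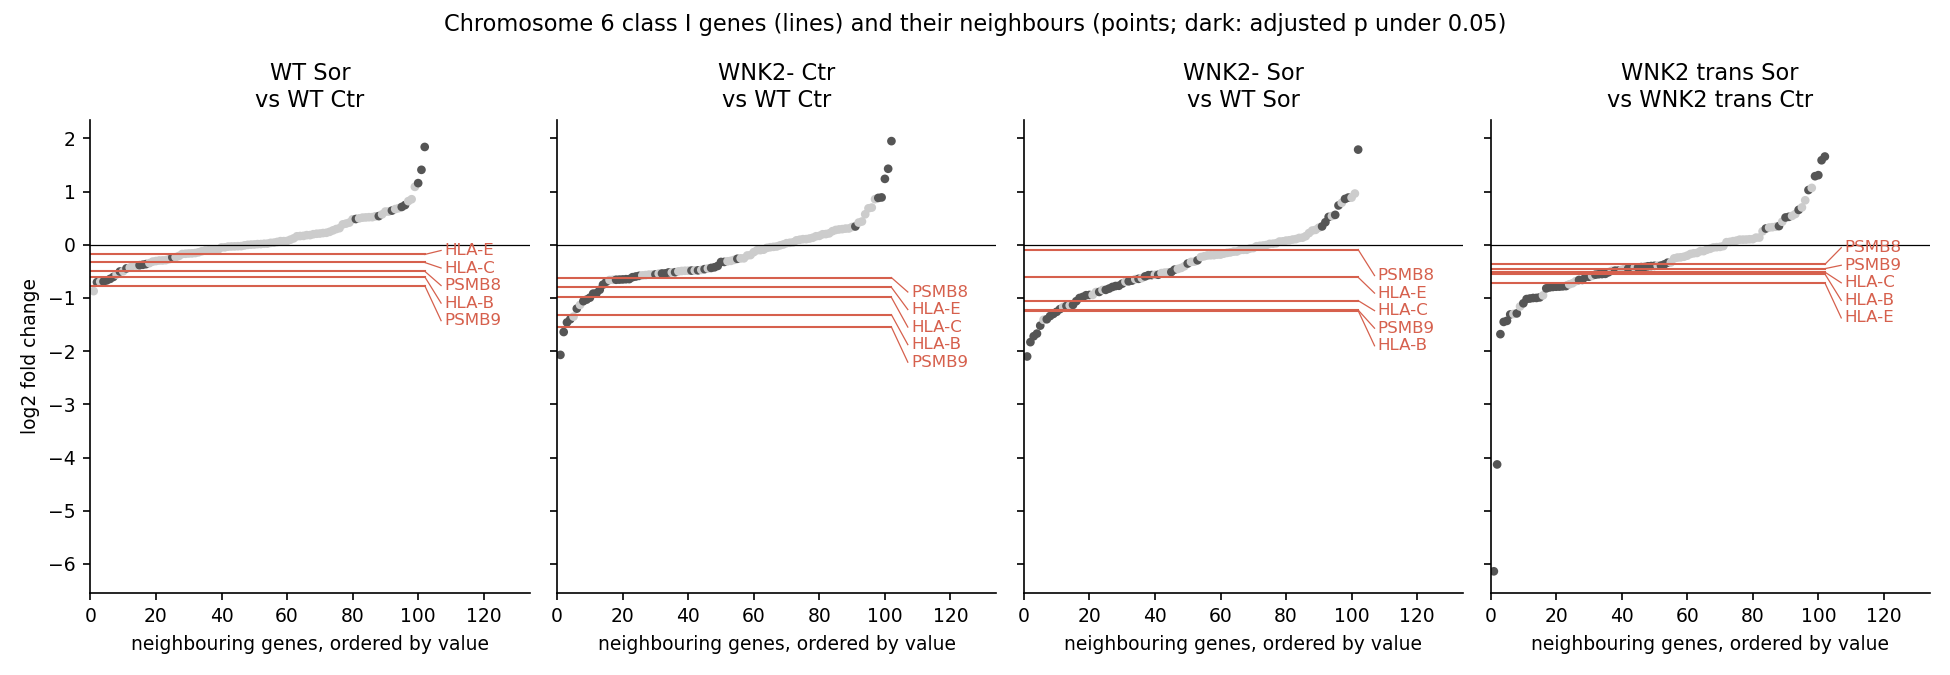
Log2 fold change (vertical axis) of the 102 tested neighbours of the chromosome 6 members, ordered by value (horizontal axis), in 4 comparisons. Red lines are the 5 tested members on chromosome 6, and dark points passed an adjusted p under 0.05. Most neighbours lie below 0 in both comparisons of WNK2- with WT cells, and the members lie below the neighbours' median of -0.32 in isotonic medium.

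Other genes of the pathway were taken from lists chosen with earlier results of these data known. Their counts stand beside these shares over all genes. In WNK2- Ctr, 21.5% were called lower than in WT Ctr and 23.7% lower than in WNK2 trans Ctr. WNK2- Sor had 22.7% called lower than WT Sor. WT Sor had 12.7% called lower than WT Ctr and 6.31% lower than WNK2 trans Ctr. WNK2 trans Sor against WNK2 trans Ctr had 24.3% called higher and 23.7% lower. Class I-like genes were lower in WNK2- Ctr than in WT Ctr for 7 of 9 tested and higher for 0, and they were lower for 6 and higher for 1 with sorbitol. Without sorbitol, FCGRT, the neonatal Fc receptor, was at -1.81 ± 0.39 log2 (edgeR adjusted p = 5.53e-04), and HLA-F, a non-classical heavy chain gene, was at -1.77 ± 0.21 (edgeR adjusted p = 2.81e-07). MICB, a stress ligand of the NKG2D receptor, was the 1 that was higher in WNK2- Sor than in WT Sor (0.57 ± 0.08, edgeR adjusted p = 3.43e-06). In WT, sorbitol lowered 3 of the 9 and raised MR1, which presents vitamin B metabolites (0.90 ± 0.11, edgeR adjusted p = 3.27e-06). Set against WNK2 trans Ctr, 7 were lower and 1 higher in WNK2- Ctr, and 2 were lower and 1 higher in WT Sor.

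Genes for peptide loading and trimming were called at a share near or below that of all genes, 3 of 8 in WNK2- Ctr against WT Ctr, where 42.1% of all genes were called. In WNK2- Ctr against WT Ctr, 2 of 8 tested were lower, TAPBP (-0.65 ± 0.10, edgeR adjusted p = 7.52e-06) and the chaperone gene CALR (-0.56 ± 0.11, 1.24e-04), and 1 was higher, SEC61A1 of the translocon (0.46 ± 0.11, 0.00166). With sorbitol, TAPBP and CALR were again lower (-0.68 ± 0.10 and -0.54 ± 0.11), and SEC61A1 and the chaperone gene CANX were higher. The median over the 8 was -0.12 without sorbitol and -0.06 with it. WNK2- Ctr had 2 lower and 2 higher than WNK2 trans Ctr. In WT, sorbitol lowered 2 against WT Ctr and raised 0, and WT Sor had 0 of 8 called against WNK2 trans Ctr by edgeR, with 2, PDIA3 and CALR, at an unadjusted p under 0.05.

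How many constitutive proteasome genes were lower with sorbitol in unedited cells depended on the isotonic group. Of the 11 tested constitutive subunits, sorbitol lowered 9 and raised 0 in WT, led by PSMB6 (-0.76 ± 0.16, edgeR adjusted p = 0.00107) and PSMB3 (-0.69 ± 0.15, 0.00163). Against WNK2 trans Ctr, 5 of the 11 were lower in WT Sor and 0 higher, with PSMB3 at -0.50 ± 0.15 (edgeR adjusted p = 0.0254) and PSMB6 at -0.31 ± 0.16 (0.194). WNK2- Ctr was lower than WT Ctr for 5 of the 11 and lower than WNK2 trans Ctr for 2, with 1 higher, and WNK2- Sor was lower than WT Sor for 0 and higher for 2, among them PSMB5 (0.59 ± 0.13, edgeR adjusted p = 8.11e-04). Over all genes, 42.1%, 47.7% and 46.3% were called in these comparisons, in that order. Of 4 partners of the inducible proteasome, sorbitol lowered 3 in WT, among them the activator subunit genes PSME1 (-1.07 ± 0.17, edgeR adjusted p = 5.64e-05) and PSME2 (-0.63 ± 0.14, 0.002), and PSME1 was also lower in WNK2- Ctr than in WT Ctr (-0.89 ± 0.17, 1.12e-04). Against WNK2 trans Ctr, PSME1 was the 1 of the 4 lower in WT Sor (-0.56 ± 0.17, edgeR adjusted p = 0.022), and 0 of the 4 were called in WNK2- Ctr by edgeR, with PSME1 at -0.39 ± 0.17 (edgeR adjusted p = 0.0556) and 2 of the 4, PSME1 and PSMB10, at an unadjusted p under 0.05.

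Transcription factors of class I promoters were lower in WNK2- cells for 9 of 14 tested in either medium, with 1 higher without sorbitol and 2 with it. IRF8 (-1.80 ± 0.36, edgeR adjusted p = 2.42e-04) and RFX5, which binds the X box (-0.85 ± 0.09, 2.48e-08), were lower in WNK2- Ctr, and NFKB1 was higher (0.30 ± 0.07, 0.00202). Compared with WNK2 trans Ctr, WNK2- Ctr had 7 lower and 2 higher. IRF1 and NFYA were listed at 0 in all libraries. Among interferon receptors and kinases, 6 of 8 tested were lower in WNK2- Ctr and 7 in WNK2- Sor, and 0 were higher. In WNK2- Ctr, 5 were lower than in WNK2 trans Ctr and 0 higher. IFNGR1, a chain of the interferon gamma receptor, was at -1.21 ± 0.10 log2 in WNK2- Ctr against WT Ctr (edgeR adjusted p = 4.67e-10). It was at -1.27 ± 0.10 in WNK2- Sor against WT Sor (edgeR adjusted p = 1.01e-10). Of 7 interferon genes, 0 were tested, and no library had more than 9 counts for any of them.

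Most tested interferon-induced antiviral genes were lower in WNK2- cells and higher in WNK2 trans Sor than in WNK2 trans Ctr. Of the 25 listed, 15 were tested. IFIT1, IFIT2, IFIT3, OAS2, OAS3, CXCL10, CXCL11 and IFITM1 were listed at 0 in all libraries, which is not read as absent expression. In WNK2- Ctr against WT Ctr, 10 of 15 tested were lower and 0 higher, and in WNK2- Sor against WT Sor 13 were lower and 0 higher. Against WNK2 trans Ctr, 9 were lower in WNK2- Ctr and 2 higher, the guanylate-binding protein gene GBP1 (0.74 ± 0.09, edgeR adjusted p = 3.66e-07) and MX1 (0.56 ± 0.18, 0.0117). OASL, a 2′-5′ oligoadenylate synthetase-like gene, was at -5.28 ± 0.21 log2 in WNK2- Ctr against WT Ctr (edgeR adjusted p = 1.03e-15). XAF1 had a mean of 4.37 CPM in WT Ctr and 0.0599 CPM in WNK2- Ctr (edgeR adjusted p = 1.79e-10). In WNK2 trans Sor against WNK2 trans Ctr, 11 of the 15 were higher and 1 lower with a median of 1.64 log2, while 5 of the 7 members were lower with a median of -0.51. RSAD2, the antiviral enzyme viperin, was higher by 4.56 ± 0.40 log2 (edgeR adjusted p = 9.29e-10), IFI44L by 2.71 ± 0.19 (1.95e-11), and the factor IRF9 by 2.26 ± 0.28 (4.37e-07), whereas IFNGR2 was lower at -1.48 ± 0.11 (2.47e-11). NLRC5 was the 1 member that was higher there. Between WT Sor and WT Ctr 4 of the 15 were higher and 3 lower, whereas between WT Sor and WNK2 trans Ctr 6 were higher and 0 lower.

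**Figure D4:**
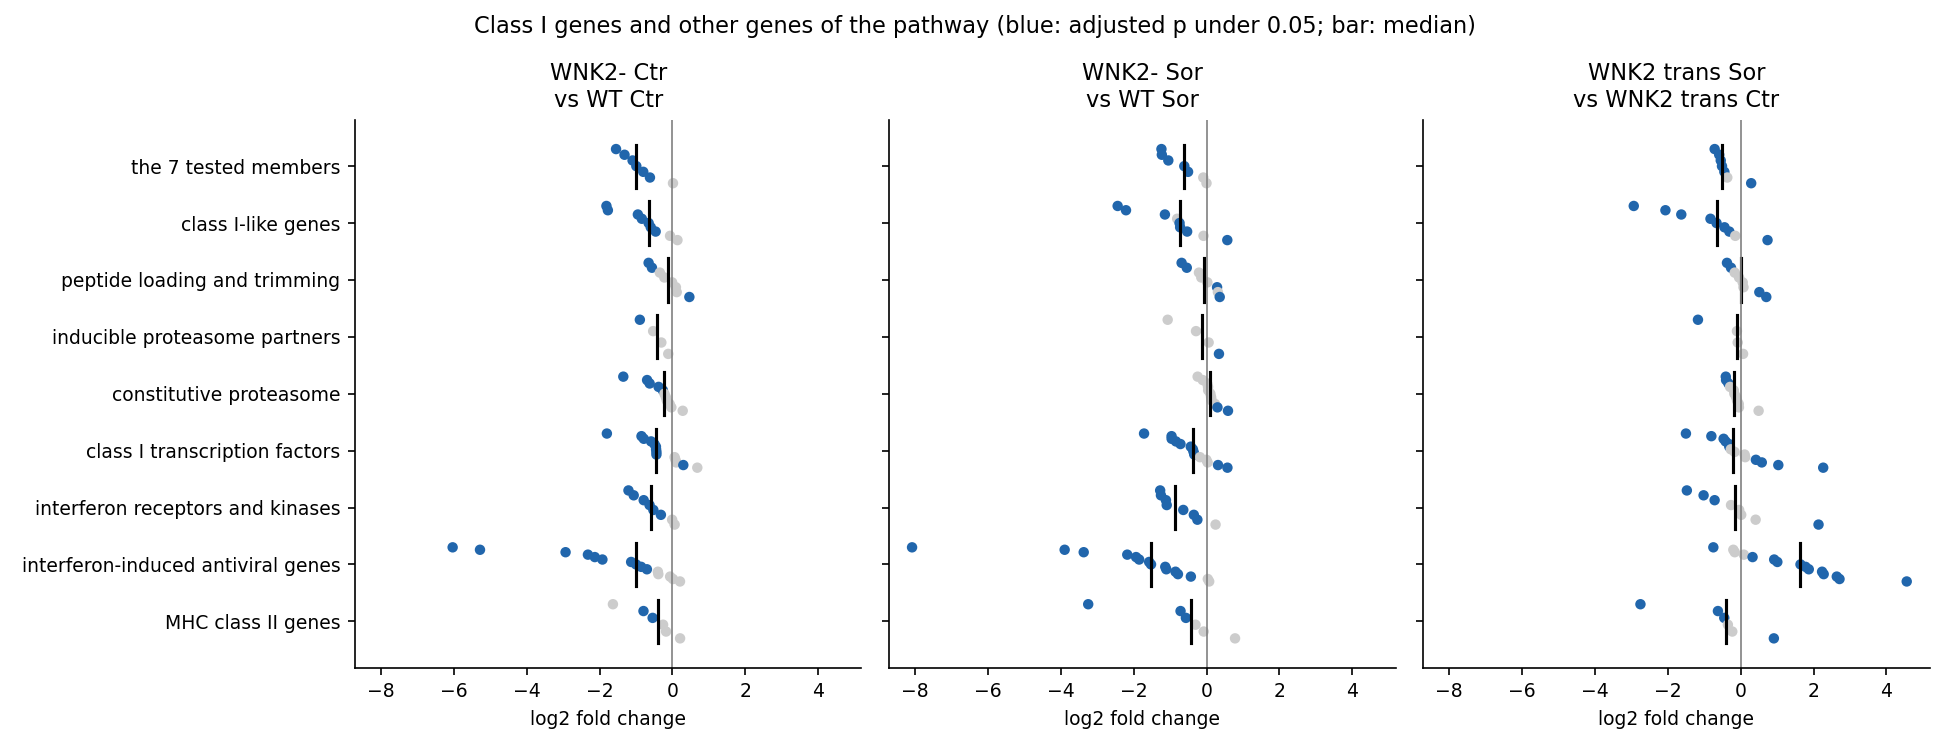
Log2 fold change (horizontal axis) of the 7 tested members and of the tested genes of 8 other lists (rows) in 3 comparisons. Blue points passed an adjusted p under 0.05 and bars are medians. The interferon-induced genes have a median of -0.999 in WNK2- Ctr against WT Ctr and 1.64 in WNK2 trans Sor against WNK2 trans Ctr, and the members have -0.99 and -0.51.

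MHC class II genes were low, with 6 of 12 passing the filter. The highest was HLA-DPB1, with a mean of 6.17 to 11.5 CPM over the groups. Of these 6, 2 were lower in WNK2- Ctr than in WT Ctr, HLA-DPB1 (-0.79 ± 0.17, edgeR adjusted p = 6.45e-04) and HLA-DPA1 (-0.54 ± 0.17, 0.0134), and 3 were lower than in WNK2 trans Ctr. Over all genes, 42.1% and 47.7% were called in these comparisons, and 21.5% and 23.7% were called lower. CIITA, the class II counterpart of NLRC5, had a mean of 1.01 to 1.96 CPM over the groups.

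The genes whose pattern over the 24 libraries was most like the mean of the scaled members were VPS25 (Pearson r = 0.966), SNAPIN (0.962), NMT1 (0.962), CALR (0.961), EFNA1 (0.954), GRHPR (0.953), THYN1 (0.951), NRM (0.951), NELFE (0.95) and ENSA (0.95). NRM and NELFE lie on chromosome 6 in the MHC region with the members. These values describe likeness across libraries that share groups.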

How the data were processed

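RNA was measured in 24 libraries of 6 groups of 4, as the labels give them. The authors sequenced poly(A) libraries, aligned the reads to GRCh38 and deposited unnormalized counts for each Ensembl identifier. The submitters' processing notes list FastQC 0.11.9, HISAT2 2.2.1, HTSeq 2.0.2 and DESeq2 1.38.3, and the annotation release and strand setting were not given in the sources used here. Genes were filtered with edgeR 4.0.16 filterByExpr (minimum count 10, minimum total 15) in R 4.3.3, scaled by TMM and tested with edgeR's quasi-likelihood test in 1 fit with 6 group means, with Benjamini-Hochberg adjustment over 16600 genes and a threshold of 0.05. CPM is a gene's count per 1e+06 of the TMM-scaled library size. The script was tested on simulated data. The text names all members, WNK2, the 10 genes most like the members, and from each list at most the 2 largest rises and 2 largest falls among called genes in a comparison. The subunit ratios, the markers and the genes listed at 0 were named after their values were seen. The members and lists were chosen with earlier results of these data known. The study's methods call the 4 libraries of a group biological replicates, all of 1 cell line, so p-values measure spread between cultures of that line, pooled over the 6 groups. The groups differed in spread. Chi-square per degree of freedom between 2 libraries ran from 19.52 to 63.88 in WT Ctr and from 2.303 to 5.122 in WT Sor. Fitting the compared groups alone called 30.9% of genes in place of 14.9% in WNK2- Sor against WNK2- Ctr. It called 5.22% in place of 12.5% in WNK2 trans Ctr against WT Ctr. Alternatives were other scalings and filters, DESeq2 1.42.0, thinned counts, single libraries left out, a replicate block and, chosen after seeing the data, a correction for GC content and exon length and a fit without WT Ctr and WNK2 trans Ctr.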

Additional observations from a re-analysis of the deposited data

Results flagged for a closer look

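NLRC5 was at 31.3 CPM in WNK2 trans Sor replicate 2, whereas the other 3 libraries of the group were at 37.5 to 38.3 CPM, so that 1 library stood apart from the rest of its group. Among 42 groups of 4 values tested in this way 1 was past Dixon's critical value, and chance alone passes about 1 in 20.

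HLA-E differed between the untransfected and the labelled transfected cells in its response to sorbitol, with an interaction of -0.53 log2. Its sorbitol difference was -0.71 log2 between the groups labelled as transfected and -0.18 log2 between the WT groups.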

How the results depend on the processing

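The number of members called was 6 to 7 in WNK2- Ctr against WT Ctr over 34 alternatives (6 to 6 with libraries left out) and 5 in WNK2- Sor against WT Sor over all 35 alternatives. With libraries left out, the number of members called ran from 3 to 4 in WT Sor against WT Ctr, 0 to 3 in WNK2- Sor against WNK2- Ctr, 0 to 0 in WNK2 trans Ctr against WT Ctr, 0 to 1 in WNK2 trans Sor against WT Sor, 3 to 7 in WNK2 trans Sor against WNK2 trans Ctr, 5 to 6 in WNK2- Ctr against WNK2 trans Ctr, 1 to 5 in WT Sor against WNK2 trans Ctr, 0 to 1 for the genotype by sorbitol term and 1 to 1 for the transfection by sorbitol term. WNK2 trans Sor against WT Sor had 0 calls with RLE factors, upper-quartile factors, the replicate block and the fit of its groups alone. Replicate numbers gave no clear pairing of the samples. Same-number correlations of deviations ran from -0.52 to 0.701 over 60 pairs (median 0.0394), with 18 over 0.1. Different-number correlations ran from -0.544 to 0.585 over 180 pairs (median -0.00248), with 48 over 0.1. Under the replicate block HLA-E lost its call there (-0.32, edgeR adjusted p = 0.0528), PSMB9 lost its call in WT Sor against WNK2 trans Ctr (-0.47, edgeR adjusted p = 0.0527), and no other member call changed. Fits of the compared groups alone called 4 members in WNK2- Sor against WNK2- Ctr, 3 in WNK2 trans Sor against WNK2 trans Ctr and 1 for the genotype by sorbitol term, as DESeq2 did (1). The fit without WT Ctr and WNK2 trans Ctr called 3 in WNK2- Sor against WNK2- Ctr. The correction for GC content and exon length, known for 96.3% of tested genes, called 7 in WT Sor against WT Ctr, 3 in WNK2- Sor against WNK2- Ctr, 2 in WNK2 trans Ctr against WT Ctr, 4 in WNK2 trans Sor against WT Sor, 2 for the genotype by sorbitol term and 4 for the transfection by sorbitol term.

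Some directions reversed, most of them for differences that had not passed the test, with HLA-C in WNK2 trans Sor against WNK2 trans Ctr (-0.51, called) as an exception. For NLRC5 in WNK2- Sor against WT Sor the log2 fold change was 0.02 with RLE factors and with DESeq2, 0.0246 under upper-quartile scaling, 0.0195 where each library had to hold 10 counts or more, 0.0122 with thinned counts and 0.15 with the GC and length correction, and -0.0509 to 0.0826 with libraries left out. NLRC5 came to -0.268 in WT Sor against WT Ctr (-0.0185 to 0.0669 with libraries left out) and -0.197 in WNK2- Ctr against WT Ctr (-0.0246 to 0.061) with that correction. For NLRC5 the correction also gave 0.725 for the transfection by sorbitol term (edgeR adjusted p = 1.18e-05). It gave 0.347 for the genotype by sorbitol term (edgeR adjusted p = 0.0408). PSMB8 in WNK2- Sor against WT Sor was 0.0113 with the correction. HLA-B in WNK2 trans Sor against WT Sor was 8.79e-05 with upper-quartile factors, 0.266 with the GC and length correction and -0.258 to 0.0513 with libraries left out. HLA-C there was 0.373 with that correction and -0.337 to 0.000698 with libraries left out, and it was 0.0211 in WNK2 trans Sor against WNK2 trans Ctr and 0.541 for the transfection by sorbitol term with the correction. HLA-B for the transfection by sorbitol term ran from -0.18 to 0.2 with libraries left out. The cause of these changes was not tested.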
